A study of Homo sapiens with 3 samples.

Results

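Tight runs of HMGA1 peaks were described in DAMI cells, where 14593 peaks fell into 2587 runs of 5 or more peaks with neighbouring summits less than 1500 bp apart. They were chosen by the spacing of summits in the list of HMGA1 peaks called over input DNA, on chromosomes 1 to 22. These members made up 3.83% of the 381376 autosomal peaks, and the whole list held 385953 peaks. Spacing and run length chose the members and are therefore given as a description, without a test.

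ChIP-seq, the sequencing of DNA that an antibody pulls down with its protein, was done on sonicated nuclei of DAMI cells. DAMI is an established leukaemic cell line, labelled MPN/AML (myeloproliferative neoplasm and acute myeloid leukaemia), and the labels name no treatment. The 3 libraries were an HMGA1 ChIP, a histone H3 ChIP and input DNA without antibody, with 1 library of each. HMGA1 was called once over input (the input list) and once over H3 (the H3 list, 263033 peaks), so both lists share all of their HMGA1 reads and neither replicates the other. With 1 library per antibody no test between conditions was possible, and intervals cover counting error only. A fold is the authors' ratio of HMGA1 over the control at the summit. HMGA1 reads and control levels at summits were recovered from the authors' fold and p-value, and read totals per library are unknown. The control level cannot fall below a genome-wide floor, which was 2.78 reads over input.

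HMGA1 is a small architectural protein of chromatin. Its AT-hook motifs insert into the minor groove of short AT-rich stretches, and 1 molecule can hold several such stretches at once, bending DNA or bringing neighbouring sites together. At the interferon-beta enhancer this property helps transcription factors assemble on closely spaced sites. Neighbouring AT-rich stretches are common in gene-poor DNA, and HMGA proteins are known as binders of satellite and scaffold-attached DNA. The sequence and gene content of the runs were not analysed here, and runs are given by position on hg19.

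Most runs were short. Of the 2587 runs, 1585 (61.3%) held exactly 5 peaks, 601 held 6, 245 held 7 and 156 held 8 or more, up to a single run of 14. The span of a run, from the start of its first peak to the end of its last, had a median of 4632 bp (quartiles 3991.5 and 5366.5) and ranged between 2265 and 12979 bp. All runs together spanned 12.4 Mb, and called peaks covered 46.2% of that length. A typical run was thus a stretch of several kilobases in which called HMGA1 sites alternated with uncalled DNA.

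The run with the most peaks lay on chromosome 6 from 141691345 to 141704323 and held 14 peaks with a median fold of 4.80 over input. In order of position, its first 7 peaks had folds of 3.79, 5.35, 5.83, 3.49, 3.73, 3.82 and 3.79. The next 7 had folds of 4.26, 6.01, 5.61, 7.02, 3.31, 8.90 and 9.07. The last 2 peaks were the highest of the run, with 39 and 36 HMGA1 reads, and the other peaks reached 31 reads at most. The last peak was also broad, at 1621 bp. Summits stood between 447 and 1361 bp apart, with a median of 920 bp. Of the 14 peaks 11 overlapped an H3-list peak, as did 66.3% of all autosomal peaks.

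The next runs by number of peaks were alike in spacing and differed in reads and folds. A run of 13 on chromosome 4 (161804275 to 161815896) had folds between 2.22 and 8.12 and a median of 31 HMGA1 reads, in a window where the input control was 2.15 times its floor. Another run of 13, on chromosome 5 (27561833 to 27573253), had folds between 2.91 and 9.71 and a median of 18 reads at 1.19 times the floor. A second chromosome 6 run, also of 13 (102347110 to 102358349), had folds between 2.39 and 7.69. Each of these runs held both weak and strong peaks.

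The 2 runs of 12 lay on chromosome 2 (144160550 to 144172157, folds 2.91 to 8.58) and chromosome 1 (188872035 to 188882973, folds 3.17 to 12.8). The chromosome 1 run held the peak with the highest fold of these 8 runs, 12.8 with 50 HMGA1 reads. There were 4 runs of 11, and those with the longest span complete the set. They were on chromosome 21 (24849031 to 24859902, folds 2.34 to 9.96) and chromosome 12 (87293089 to 87303643, folds 3.44 to 6.79). The chromosome 21 run reached 71 reads and the chromosome 12 run 25 reads. Of the 99 peaks in these 8 runs 75 overlapped an H3-list peak, as did 72.9% of all members and 66.3% of all autosomal peaks. Of the runs 5 overlapped a run that the same rule makes in the H3 list, as did 49.4% of runs of 8 or more.

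**Figure D1:**
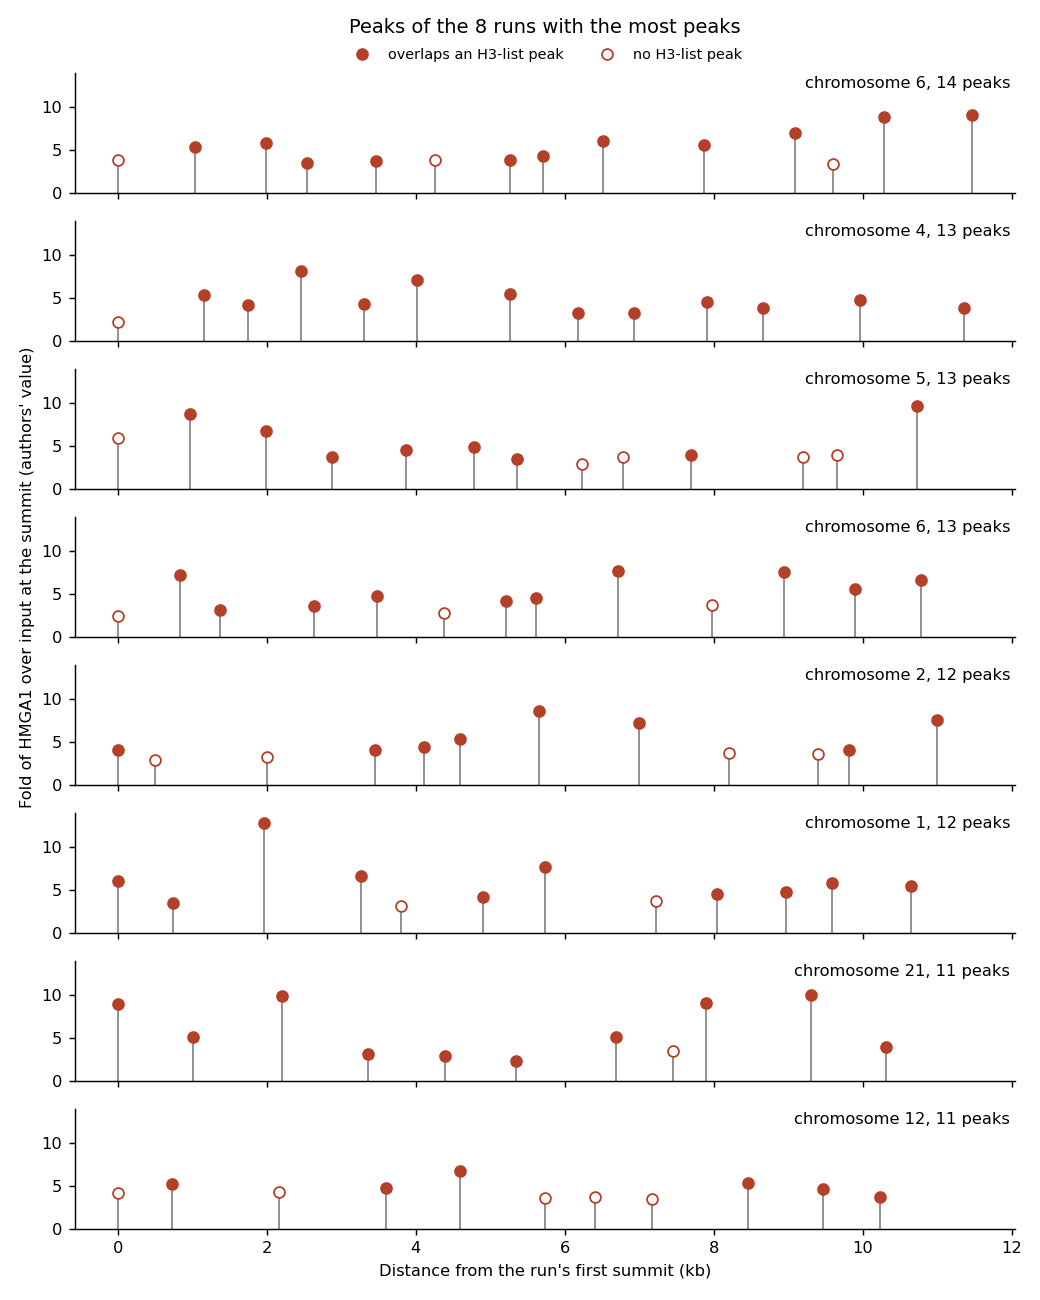
Position and fold of every peak in the 8 runs with the most peaks; the x axis is the distance from the run's first summit in kb, the y axis the authors' fold of HMGA1 over input, and filled circles mark peaks that overlap an H3-list peak. Peaks of unequal height follow each other along each run, and 75 of the 99 circles are filled. Of all autosomal peaks 66.3% overlap an H3-list peak. Ties in number of peaks went to the run with the longer span.

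The runs with the highest median fold were short ones. A run of 5 on chromosome 21 (17730542 to 17734895) had folds of 8.66, 5.96, 13.0, 9.65 and 3.43, with 32, 22, 48, 43 and 15 HMGA1 reads. Its control stood near the floor at each summit, between 2.78 and 3.66 reads. On chromosome 13 a run from 84003520 to 84007910 had folds of 3.97, 8.99, 2.52, 10.0 and 8.62. A second chromosome 13 run, from 69206526 to 69211755, had folds of 8.25, 2.74, 8.41, 7.16 and 8.34. Even these 3 runs each held a peak with a fold under 3.5.

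Spacing within the runs was broad, and no 100 bp class of distance stood out. The 12006 distances between neighbouring summits inside runs had a median of 929.5 bp (quartiles 689 and 1190), between 301 bp and the 1499 bp the rule allows. The uncalled DNA between neighbouring peaks had a median of 508 bp and was never shorter than 151 bp in any autosomal pair. MACS2 joins enriched stretches that lie close together into 1 peak, so closer HMGA1 sites would not be listed separately. The 100 bp classes from 600 to 1199 bp each held 9.39% to 10.6% of the distances.

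For comparison, the mean outcome of shuffling the peaks within their 1 Mb window was calculated exactly from the number of peaks in each window. Over all autosomal peaks, 25 neighbour pairs were under 300 bp apart, whereas the shuffle gave 21975. At 300 to 399 bp there were 1319 pairs against 6963 in the shuffle (0.189 times). Pairs 700 to 799 bp apart numbered 10678 against 6303 in the shuffle (1.69 times), and pairs 800 to 899 bp apart 10532 against 6150 (1.71 times). The excess was smaller at longer distances, 1.46 times at 1400 to 1499 bp, 1.39 times at 1500 to 1599 bp and 1.04 times at 2900 to 2999 bp. The joining distance of 1500 bp did not fall at a break in this curve: 7759 pairs lay in the class just inside it and 7219 in the class just outside.

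**Figure D2:**
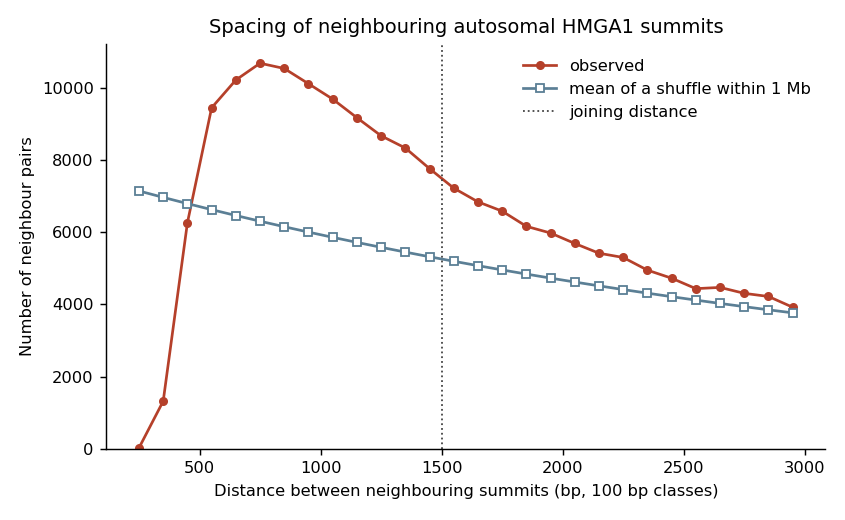
Number of neighbouring autosomal summit pairs (y axis) by distance in 100 bp classes (x axis, bp), observed and as the mean of a shuffle within 1 Mb windows; the dotted line is the joining distance. Observed pairs are nearly absent under 300 bp, peak at 700 to 799 bp with 10678 pairs, and approach the shuffle toward the right edge.

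The number of runs exceeded the shuffled mean by a small factor. There were 2587 runs with 14593 peaks, against 2201 runs with 12435 peaks in the shuffle, a ratio of 1.18 for runs and 1.17 for peaks. By size the ratio was 1.17 for runs of 5, 1.19 for 6, 1.24 for 7, 1.23 for 8 and 1.06 for 9. Runs of 10 or more numbered 21 against 26.2, a ratio of 0.80. The shuffle lets summits fall at any distance. Called pairs were rarer than in the shuffle up to 499 bp, and called summits were never closer than 244 bp. Keeping only this smallest distance raised the ratio of peaks to 1.52, and with both this distance and windows of 200 kb it was 1.33. It was 1.57 with windows of 5 Mb, but 1.04 with windows of 200 kb. With a joining distance of 1000 bp the ratio fell below 1, to 0.498, and with stricter peaks it was 0.869 (−log10 q-value of at least 5) and 0.769 (fold of at least 4). Whether runs were more or less frequent than in this shuffle thus changed with the joining distance and with the cut on peaks. The ratios below 1 come from the shuffle that lets summits fall at any distance. They were not recalculated with the smallest distance kept.

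**Figure D3:**
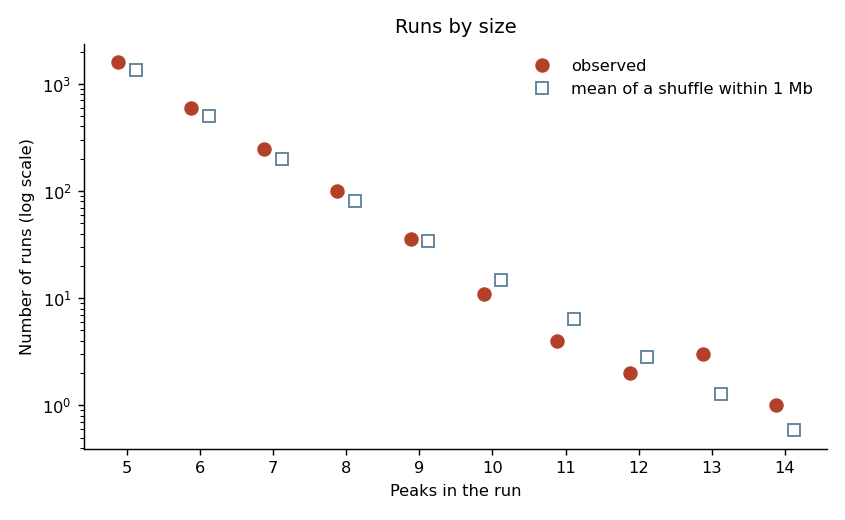
Number of runs (y axis, log scale) by the number of peaks in the run (x axis), observed and as the mean of a shuffle within 1 Mb. Observed counts lie slightly above the shuffle for runs of 5 to 9, such as 1585 against 1358 runs of 5, and below it for runs of 10 to 12.

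The ratio to the shuffle within 1 Mb was highest in windows with few peaks and was above 1 in each class up to 350 peaks. Windows of 51 to 100 peaks held 490 members against 41.4 in the shuffle, 11.8 times as many, and windows of 101 to 150 peaks held 1122 against 294 (3.82 times). In windows of 151 to 200 peaks 1635 members were found against 768 (2.13 times), and in windows of 201 to 250 peaks 1845 against 1249 (1.48 times). The ratio was 1.06 at 251 to 300 peaks, 1.01 at 301 to 350, 0.883 at 351 to 400 and 0.87 at 401 to 494. In windows of 1 to 50 peaks there were 6 runs with 31 members, against 0.648 members in the shuffle. Removing peak-free stretches of at least 100 kb from the window length lowered the ratio to 6.12 for 51 to 100 peaks, and shuffling within 200 kb lowered it to 3.71. Members of windows with 51 to 100 peaks were thus more frequent than in a shuffle at either scale. Shuffling within 200 kb gave ratios of 2.06 at 101 to 150 peaks, 1.42 at 151 to 200 and 1.17 at 201 to 250. With that shuffle the ratio was already below 1 at 251 to 300 peaks (0.939) and at 301 to 350 (0.932). In the dense windows members were about as frequent as in the shuffle within 1 Mb or fewer. That shuffle lets summits fall closer than the 244 bp that called summits keep. With this distance kept, ratios by window density were not calculated. The dense windows held many of the runs. Of all runs 48.3% lay in the 188 windows with more than 300 peaks, which held 18.3% of autosomal peaks.

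**Figure D4:**
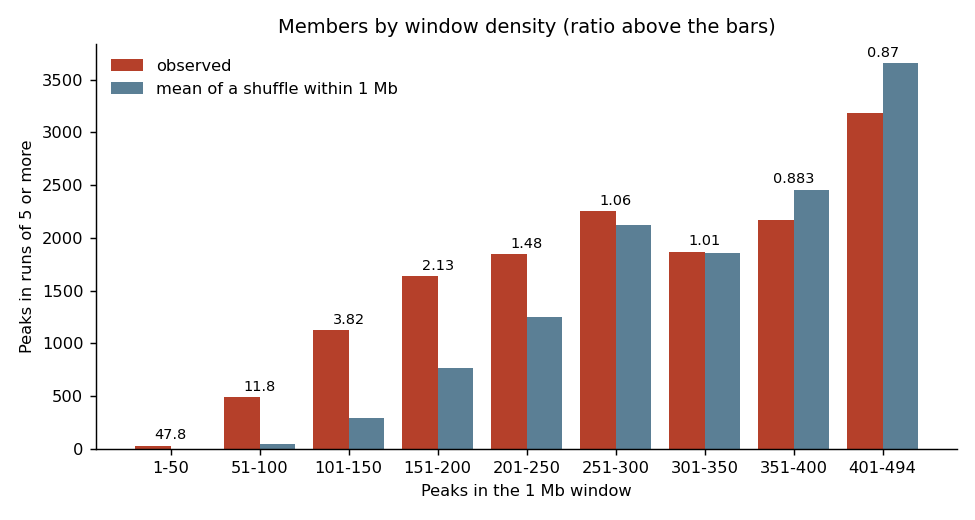
Peaks in runs of 5 or more (y axis) by the number of peaks in their 1 Mb window (x axis), observed and as the mean of a shuffle within that window, with the ratio of both above each pair of bars. The ratio is 11.8 at 51 to 100 peaks and 0.87 at 401 to 494 peaks. The shuffle lets summits fall at any distance.

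Runs were spread unevenly over the chromosomes, and their shares differed from those of the peaks. Chromosome 13 held 10.8% of the runs and 5.74% of the autosomal peaks, whereas chromosome 3 held 4.60% and 7.37%. Chromosome 4 held 367 runs, chromosome 13 held 280, chromosome 2 held 268, chromosome 1 held 257 and chromosome 6 held 235. These 5 chromosomes held 54.4% of the runs and 42.6% of the autosomal peaks. Chromosomes 21 and 13 had the highest share of their own peaks in runs, 7.73% and 7.21%. Chromosome 22 was at the other end with 0.326%.

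The chromosomes richest in runs were not those farthest above the shuffle. Chromosomes 4 and 13 had 0.969 and 0.989 times the shuffled number of runs. That shuffle lets summits fall at any distance, and ratios by chromosome were not calculated with the smallest distance kept. Chromosome 1 had 1.31 times, chromosome 8 1.41 times and chromosome 10 1.87 times. Chromosome 15 had 47 runs against 13.6 (3.44 times). On the sparse chromosomes numbers were small: 7 runs against 0.955 on chromosome 19, 11 against 0.725 on chromosome 20 and 7 against 1.61 on chromosome 16. These peak-poor chromosomes held few runs, but more than a shuffle of their own peaks within 1 Mb gave. Removing peak-free stretches or shuffling within 200 kb lowered the ratio in windows with few peaks. Ratios by chromosome were not calculated in either way.

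The single run of chromosome 22 lay from 49159638 to 49164787, in a window with only 30 peaks. Its 5 peaks had folds of 4.23, 4.50, 8.73, 4.50 and 3.44 and 15, 16, 32, 16 and 12 HMGA1 reads, with the input control at its floor at each summit. The third peak, 978 bp wide, was the strongest. It and the peak after it overlapped H3-list peaks, at 8.21-fold and 4.26-fold over H3.

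Within 1 Mb windows the most runs, 20 with 119 peaks, were found on chromosome 13 from 69000001 to 70000000, against 17.2 runs in the shuffle. Chromosome 1 from 191000001 to 192000000 held 16 runs against 12.9, and chromosome 21 from 23000001 to 24000000 held 16 against 12.4. Chromosome 9 from 11000001 to 12000000 also held 16, against 17.6. These 4 windows were picked after their values were seen. Runs seldom touched each other: the median distance to the nearest other run was 98.9 kb, and 233 runs (9.01%) had another run within 10 kb.

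Part of the runs lay where the input control was raised. Windows with a median control of at least 2 times the floor numbered 93 and held 257 runs (9.93%). They held 10.2% of members and 5.08% of the peaks outside runs. Of the peaks outside runs in 1 Mb windows that hold a run, they held 7.64%. On chromosome 9 from 1 to 30000000 there were 96 runs, and 24 on the rest of that chromosome. The share of that chromosome's peaks in the segment was not calculated, so these counts give position only. The median of the runs' median reads was 48.5 in this segment and 19 in the rest, but the median fold was 3.86 in the segment and 4.11 in the rest. More copies of a segment and a higher share of its DNA in the library cannot be told apart here. Without the raised windows 13110 members were left, and their ratio to the shuffle was 1.20.

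Peaks in runs were about as strong as other peaks. The median fold was 4.55 in members (quartiles 3.67 and 5.92) and 4.50 in the 366783 peaks outside runs (3.70 and 5.82). Peaks outside runs but in the same 1 Mb windows as a run had a median of 4.58 (3.70 and 6.01). HMGA1 reads at the summit had a median of 21 in members, 20 in the other peaks of the same windows and 19 in all peaks outside runs. Members less often had the control at its floor, in 26.2% of members, 29.9% of the other peaks of the same windows and 36.1% of all peaks outside runs. Member peaks were slightly wider, with medians of 323 bp in members, 313 bp in the other peaks of the same windows and 297 bp in all peaks outside runs.

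The single highest fold and the single highest pileup on the autosomes lay outside runs, as did 366783 of the 381376 autosomal peaks. The highest fold in a run was 16.4, against 26.6 outside, and the highest pileup 182 reads, against 374 outside. More than 100 HMGA1 reads were found at 41 members (0.281%) and at 397 peaks outside runs (0.108%). Of those 397 peaks, 327 lay in the same windows as a run, which is 0.163% of the other peaks of these windows. Runs of 5 did not stand apart from the runs of 4 that the rule leaves out. The 7925 peaks in runs of 5 had a median fold of 4.52 and 20 reads, and the 18416 peaks in runs of 4 had 4.51 and 20 reads.

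Strength varied more within runs than between them. The highest fold of a run was a median of 2.33 times its lowest (quartiles 1.89 and 2.90), and the median run had a highest fold of 7.40 and a lowest of 3.16. By contrast, 1.67% of the variance of log2 fold among members lay between runs. For log2 reads the share was 34.5%, with control levels that differ between regions. Neighbouring peaks in a run had nearly unrelated folds, with a Spearman rho of 0.0193 over 12006 pairs that share a library and a region. Pairs 10 kb or more apart had a rho of 0.0162. HMGA1 reads of neighbours were more alike, with a rho of 0.259 inside runs, 0.241 for neighbours under 1500 bp apart outside runs and 0.179 for pairs 10 kb or more apart.

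Position in the run made little difference. The first and last peaks of runs had a median fold of 4.65 (n = 5174) and inner peaks one of 4.50 (n = 9419), both with 21 HMGA1 reads. The highest fold of a run was at its first or last peak in 39.0% of runs, and 35.5% of members were first or last peaks. The share of runs counts each run once, whereas longer runs weigh more in the share of members, so they are not directly comparable. Outer peaks were 331 bp wide at the median and inner peaks 320 bp.

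Of the 14593 members, 10642 overlapped an H3-list peak by at least 1 bp, which is 72.9% (Wilson 95% interval 72.2 to 73.6). In all autosomal peaks the share was 66.3%, and it was 66.0% (65.9 to 66.2) outside runs. In the other peaks of the same windows it was 70.6%. Weighting the peaks outside runs to the members' numbers of HMGA1 reads brought their share to 70.6%, which left a difference of 2.33 percentage points. With the same weighting the other peaks of the same windows reached 71.9%, 0.982 points below the members. Most of the higher H3-list overlap of members thus went with their higher reads and their windows. Peaks in a run share a region, whereas these intervals treat every peak as an independent site, so they are likely too narrow.

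By height, the difference was in low peaks. With 16 to 17 HMGA1 reads 59.8% (57.4 to 62.1) of members overlapped an H3-list peak, against 54.5% (53.9 to 55.2) of the other peaks of the same windows and 50.6% (50.2 to 51.1) of all peaks outside runs. With 14 to 15 reads the shares were 31.4%, 28.8% and 25.1%, in the same order. With 18 to 20 reads they were 81.7%, 81.8% and 79.2%, so that members and the other peaks of their windows no longer differed beyond their intervals. They were 93.8%, 94.2% and 93.8% with 21 to 24 reads, and 99.2%, 99.2% and 99.3% with 35 or more. Members that overlapped an H3-list peak had a median fold over H3 of 5.25, the same as for peaks outside runs.

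**Figure D5:**
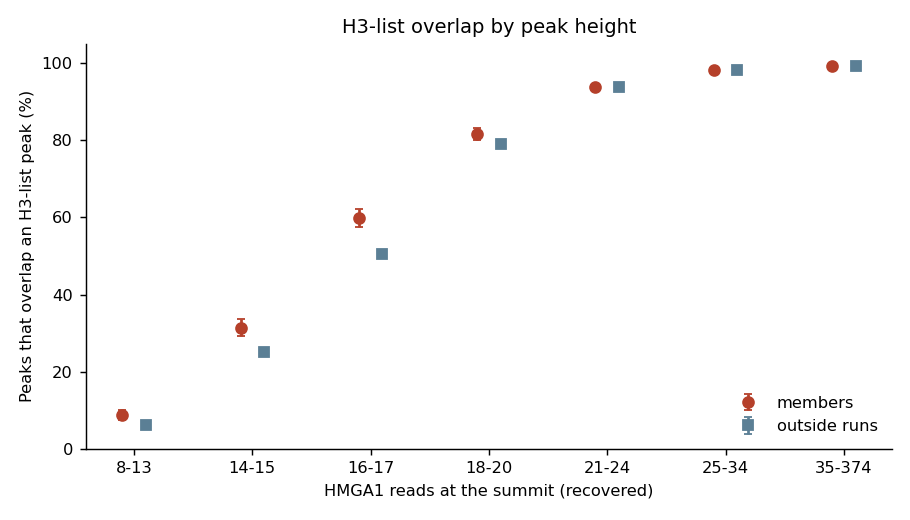
Share of peaks that overlap an H3-list peak (y axis, percent) by recovered HMGA1 reads at the summit (x axis), for members and for peaks outside runs, with Wilson 95% intervals. Members lie above the other peaks up to 20 reads, as at 16 to 17 reads with 59.8% and 50.6%, and both are near 100% from 25 reads on.

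The direction of this difference also went with window density. In windows of 51 to 100 peaks 62.0% of members and 57.7% of the other peaks overlapped an H3-list peak. At 201 to 250 peaks the shares were 71.1% and 67.4%. In the 3 classes above 300 peaks the order was the other way round. The shares were 70.7% of members and 71.6% of the other peaks at 301 to 350 peaks, 75.9% and 76.6% at 351 to 400, and 80.4% and 82.9% at 401 to 494. Median reads in the densest windows were 24 in members and 25 in the other peaks.

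Whole runs were then looked for in the H3 list, which asks for 5 close peaks there rather than for 1 overlap, so the share of runs and the share of single peaks are not comparable. The same rule made 1160 runs with 6426 peaks in the H3 list, against 948 runs with 5299 peaks in a shuffle of that list, 1.22 and 1.21 times as many. Of the 2587 input-list runs 815 (31.5%, 29.7 to 33.3) overlapped one of them, and 813 (70.1%) of the H3-list runs overlapped an input-list run. The share of input-list runs found again was 25.4% (23.3 to 27.6) for runs of 5, 37.1% (33.3 to 41.0) for 6, 45.7% (39.6 to 52.0) for 7 and 49.4% (41.6 to 57.1) for 8 or more. A longer run can lose peaks and still reach 5, so the rise with size is partly built in.

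In 590 runs (22.8%) every peak overlapped an H3-list peak, in 787 runs 1 peak did not, in 691 runs 2 did not, and in 519 runs 3 or more did not. Of the fully overlapped runs 32 overlapped no H3-list run. An H3-list peak overlapped more than 1 member in 90 cases, and 197 members overlapped more than 1 H3-list peak. Most runs thus had no more than 2 peaks without an H3-list counterpart. Over single peaks, 72.9% of all members and 66.3% of all autosomal peaks overlapped an H3-list peak. The numbers of such runs that these shares alone would give were not calculated, so the counts describe the runs only.

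In 13 runs no peak overlapped an H3-list peak, and none of them had more than 5 peaks. The longest lay on chromosome 7 from 53231467 to 53237382, with spacings of 1269 to 1497 bp. Its folds were 3.44, 3.70, 2.91, 3.44 and 2.91, its HMGA1 reads 12, 13, 10, 12 and 10, and its control was at the floor at each summit. The median reads of these 13 runs lay between 11 and 16.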

How the data were processed

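Peaks were called with MACS2 on hg19, per the submitters' processing notes; its version, the aligner and any filters on reads are not stated there. The authors deposited, for each peak, its fold ratio over the control and −log10 values of p and q. A deposited integer score was not used. Peak names carry a prefix other than HMGA1; the file names assign the ChIP to HMGA1.

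Reads and control levels were recovered by finding the whole pileup that gives back the deposited fold and p-value (fold as pileup plus 1 over control plus 1, Poisson tail); 100% of autosomal peaks fitted within 0.001 of the −log10 p-value. Summits were ordered and joined under 1500 bp. The shuffled mean was calculated in closed form for uniform placement of each 1 Mb window's peaks, with window ends joined. The closed form and the recovery were tested on simulated data. An input-list peak counted as shared when 1 bp or more lay in an H3-list peak; shares have Wilson 95% intervals. For the weighting by reads, 60 or more reads formed 1 class. Depth per library is unknown.

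Named runs are the 8 with the most peaks, the 3 with the highest median fold, the 3 with the most peaks at a control under 1.5 times the floor (all among the 8), the longest without H3-list overlap, and the 1 run of chromosome 22. For the 8 runs, ties in number of peaks went to the longer span. The members and rules were chosen with earlier results of these data known. A genome or annotation of this build was not used, so sequence and gene comparisons were not run. Alternatives were other joining distances, run sizes, stricter peaks, edge distances, window sizes and overlap rules. The tools were scipy 1.17.1, numpy 2.4.6, matplotlib 3.10.9 and pandas 2.3.3 under Python 3.11.15. Coordinates are 1-based.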

Additional observations from a re-analysis of the deposited data

How the results depend on the processing

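No paired analysis was possible because there is 1 library per antibody, and for the same reason no replicate could be left out. Peaks in runs over the shuffled number (1.17) turned below 1 with a joining distance of 1000 bp (0.498), a −log10 q-value of at least 5 (0.869) and a fold of at least 4 (0.769). It was 1.40 with 2000 bp, 1.04 with windows of 200 kb, 1.57 with windows of 5 Mb, 4.44 with whole chromosomes, 1.52 with the smallest distance kept, and 1.33 with that distance and windows of 200 kb. In all it was above 1 in 11 of 14 alternatives, and the settings below 1 were not tried with the smallest distance kept. For these shifts the cause was not tested, except that smaller windows follow local density more closely by construction.

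Counts of members and runs were 1883 and 356 at 1000 bp, 36787 and 6116 at 2000 bp, 33009 and 7191 for runs of 4 or more, 6668 and 1002 for runs of 6 or more, 3634 and 664 at the stricter q-value, and 2005 and 375 at the stricter fold. In H3-list overlap, members were above the other peaks in each window class up to 300 peaks and below them in each class above. Without this split by window density, the higher overlap of members kept its direction in 12 of 12 alternatives. Against 6.90 percentage points, it was 2.18 at 1000 bp, 8.27 at 2000 bp, 8.32 for runs of 6 or more, 5.26 at the stricter fold, 10.4 with edges under 1000 bp apart, 2.33 at equal reads and 0.982 at equal reads in the same windows. The median fold of members was 4.39 at 1000 bp, 5.22 at the stricter q-value, 5.55 at the stricter fold and 4.76 with edges under 1000 bp apart, and the median spacing was 714, 1083, 958 and 966 bp at 1000 bp, 2000 bp, the stricter q-value and the stricter fold. At 1000 bp the median fold of members was below that of other peaks (4.50), and at the stricter q-value both came to 5.22. Runs found again in the H3 list were 22.8% when every peak had to overlap, and 48.9% when H3-list runs of 4 counted. The combined setting and the comparison within windows were chosen after seeing the data. Sites under 8 HMGA1 reads were not detectable at this depth.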
